A study of Mus musculus with 12 samples.

Results

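The 37 genes described here are a list of antioxidant and detoxification genes around the transcription factor NRF2: its regulators, the enzymes of glutathione synthesis and use, the thioredoxin system, and the enzymes that supply NADPH, the pentose phosphate pathway among them. They were taken by name from a table of read counts per gene, and the list was chosen with earlier results of these data known. All 37 had counts and all 37 passed the filter on low counts, among 13844 genes tested of 25700 listed. RNA sequencing measured them in mouse liver macrophages from 12 libraries, which fall into 4 groups of 3.

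The groups cross 2 genotypes, labelled Spta wt/wt (WT) and Spta sph/sph, with 2 treatments, saline or an agonistic antibody to CD40 at 20 mg/kg, both given into the peritoneum. Livers were digested 30 h after the injection, and cells were enriched with magnetic beads carrying an antibody to F4/80, a macrophage surface protein; other liver cells can remain, since no sort followed. The labels describe male mice 8 to 10 weeks old, and the design text counts 3 animals per group. Sph/sph mice carry a defect of alpha-spectrin, a protein of the red cell skeleton, in every cell of the body and from birth, and their fragile red cells are cleared in large numbers by macrophages of liver and spleen. CD40 activates macrophages and other antigen-presenting cells when engaged. The column names of the count table call the control genotype heterozygous where the labels have wt/wt, and WT follows the labels. The series' title names the uptake of red cells and the anti-inflammatory programming of liver macrophages as its subject.

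NRF2 (gene Nfe2l2) is made continuously and is destroyed as long as KEAP1 hands it to a ubiquitin ligase; oxidants and electrophiles modify KEAP1 and let NRF2 accumulate. NRF2 then pairs with a small MAF protein at antioxidant response elements in the promoters and enhancers of genes that make glutathione, conjugate and export reactive compounds, and regenerate NADPH. The pentose phosphate pathway and malic enzyme provide that NADPH, which glutathione reductase and thioredoxin reductase spend. Macrophages that take up red cells handle heme and iron, both of which promote oxidation.

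Promoter sequence was looked up because the genes share a regulator with a known binding motif. Of the 37 genes, 32 had a promoter window among RefSeq sequences of build GRCm38.p6. The core of the antioxidant response element, TGACNNNGC (GCNNNGTCA when read from the opposite strand), was searched on both strands of the 250 bases before each start site; it can overlap the AP-1 motif TGACTCA. Genes with several start sites have several windows. In 10 of the 32 genes (31.2%) at least 1 window held the core, beside 11.5% of 27025 genes; counted by window it was 10 of 41 (24.4%), beside 10.2% of 32851. Nfe2l2, Mafg, Gclm, Txnrd1, Prdx1, G6pdx, Gstm5, Gsta3, Mgst1 and Ugdh were the genes with a match. A match of 9 letters is a description of the sequence and not evidence of binding. Of the 14 genes with a window that differed between genotypes in the tests below, 4 held it, beside 10 of all 32. The windows of these 4 genes are printed. Whether the motif goes with the calls was not tested. Each window is read 5′ to 3′ in the direction of its gene, the capitals mark the motif, and the distance is that of the match from the RefSeq start site next to the window. The gene coordinates given elsewhere are GENCODE's outer bounds, which begin 314 bases further upstream for G6pdx, 211 for Mgst1 and 33 for Gstm5, so these windows lie wholly or partly inside those bounds; GENCODE also lists transcripts starting within 8 bases of each of the 4 RefSeq sites.
Gclm, chr3:122245307-122245556, plus strand, motif on the opposite strand 134 bases before the RefSeq start: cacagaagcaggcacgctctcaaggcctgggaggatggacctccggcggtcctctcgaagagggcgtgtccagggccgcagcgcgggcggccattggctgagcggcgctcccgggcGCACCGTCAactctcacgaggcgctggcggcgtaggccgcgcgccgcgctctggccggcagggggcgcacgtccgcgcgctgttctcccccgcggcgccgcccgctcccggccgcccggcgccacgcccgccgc
G6pdx, chrX:74428881-74429130, minus strand, motif on the opposite strand 57 bases before the RefSeq start: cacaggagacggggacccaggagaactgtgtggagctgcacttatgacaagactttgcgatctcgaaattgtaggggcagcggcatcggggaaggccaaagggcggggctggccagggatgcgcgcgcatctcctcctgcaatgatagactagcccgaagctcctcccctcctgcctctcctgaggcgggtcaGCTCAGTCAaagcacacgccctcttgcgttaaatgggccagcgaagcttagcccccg
Mgst1, chr6:138140277-138140526, plus strand, motif on the opposite strand 56 bases before the RefSeq start: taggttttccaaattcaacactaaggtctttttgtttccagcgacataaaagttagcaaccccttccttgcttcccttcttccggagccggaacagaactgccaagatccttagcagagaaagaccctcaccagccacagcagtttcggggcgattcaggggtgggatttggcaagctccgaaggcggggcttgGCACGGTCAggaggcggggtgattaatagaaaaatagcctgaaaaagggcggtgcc
Gstm5, chr3:107895604-107895853, plus strand, motif on the same strand 42 bases before the RefSeq start: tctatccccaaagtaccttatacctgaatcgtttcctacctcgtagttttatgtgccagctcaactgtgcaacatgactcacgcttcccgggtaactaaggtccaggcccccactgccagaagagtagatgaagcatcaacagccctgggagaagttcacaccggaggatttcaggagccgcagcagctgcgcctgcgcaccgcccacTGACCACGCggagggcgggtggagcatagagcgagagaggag

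Total counts ran from 14991250 to 18984067 per library. Levels are given in CPM, counts scaled to a common library total with TMM factors, and always in the order of libraries A, B and C of a group. Expression differences are log2 folds ± SE from edgeR's quasi-likelihood test, and a gene is called where p, adjusted by Benjamini-Hochberg over all 13844 genes, is under 0.05. The library sph/sph anti-CD40 C stood apart: on the second principal component (20.3% of the variance) it lay at -26.5 and the other libraries of its group at 102.3 and 75.8. Results that rest on it are given with and without it. The A library of every group had 0 counts for 4 Y-linked genes against 2436 to 4055 counts in the others, which goes against the label of male mice for 1 library in each group. The summed level of 6 general macrophage markers, Csf1r and Lyz2 among them, was 12461 to 14329 CPM in WT saline, 10474 to 13728 in sph/sph saline, 6679.9 to 12824 in WT anti-CD40 and 6628 to 12214 in sph/sph anti-CD40. Lyz2 makes up much of that sum: in WT under anti-CD40, 4 of the 6 markers, Csf1r, Cd68, Mertk and Cd14, fell, and Csf1r went from 5831 to 6245 CPM to 186 to 539 CPM. The A libraries of both genotypes also share an identifier in the column names, 1 under saline and another under anti-CD40.

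In saline-treated mice, 5 of the 37 genes were higher in sph/sph than in WT macrophages: both subunits of glutamate-cysteine ligase (Gclc and Gclm), the cytosolic malic enzyme Me1, and the glutathione transferases Gstm1 and Mgst1, with folds from 1.60 to 5.91. That is 13.5% of the genes higher and 0 lower, beside 1.6% higher and 0.433% lower among all genes tested. For the count of 0, edgeR gave 1 lower gene at an unadjusted p under 0.05, DESeq2 called 1 (Nfe2l2) and limma-voom 0. The median log2 fold of the 37 genes was 0.59, against 0.01 over all genes, and 35 of the 37 folds were above 0.

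Gclc (chr9:77754535-77794485, GRCm38) encodes the catalytic subunit of the enzyme that limits glutathione synthesis. Its level was 58.7, 59.1 and 60.8 CPM in WT saline and 92.6, 101 and 92.2 CPM in sph/sph saline. The groups were well apart, with all 3 sph/sph libraries above the WT libraries, and the log2 fold was 0.68 ± 0.14 (1.60-fold, edgeR adjusted p = 0.0353). Gclm (chr3:122245557-122270732), the modifier subunit, stood at 69.9, 64.2 and 64.2 CPM in WT and 181, 214 and 206 CPM in sph/sph. Again no library of one genotype reached into the range of the other, and the log2 fold was 1.60 ± 0.28 (3.03-fold, edgeR adjusted p = 0.0171).

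Me1 (chr9:86581371-86695953), which makes NADPH from malate outside the pentose phosphate pathway, was low in WT, at 7.58, 10.1 and 3.88 CPM, and reached 35.2, 44.9 and 47.2 CPM in sph/sph. This was the widest fold among the called genes, 2.56 ± 0.45 on the log2 scale (5.91-fold, edgeR adjusted p = 0.0194). Gstm1 (chr3:108012255-108017973), a cytosolic glutathione transferase of the mu class, was at 76.7, 137 and 57.6 CPM in WT and 239.9, 268 and 394 CPM in sph/sph. WT library B lay highest within its group and still below every sph/sph library; the log2 fold was 1.73 ± 0.31 (3.32-fold, edgeR adjusted p = 0.0219). Mgst1 (chr6:138140316-138156755), a membrane-bound transferase that also reduces lipid peroxides, was at 94.1, 86.9 and 65.4 CPM in WT and 255, 254 and 316 CPM in sph/sph. Its log2 fold was 1.74 ± 0.18 (3.35-fold, edgeR adjusted p = 0.00282), and it was the 1 gene of the 5 whose call held in each of the 12 fits that left out 1 library.

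**Figure D1:**
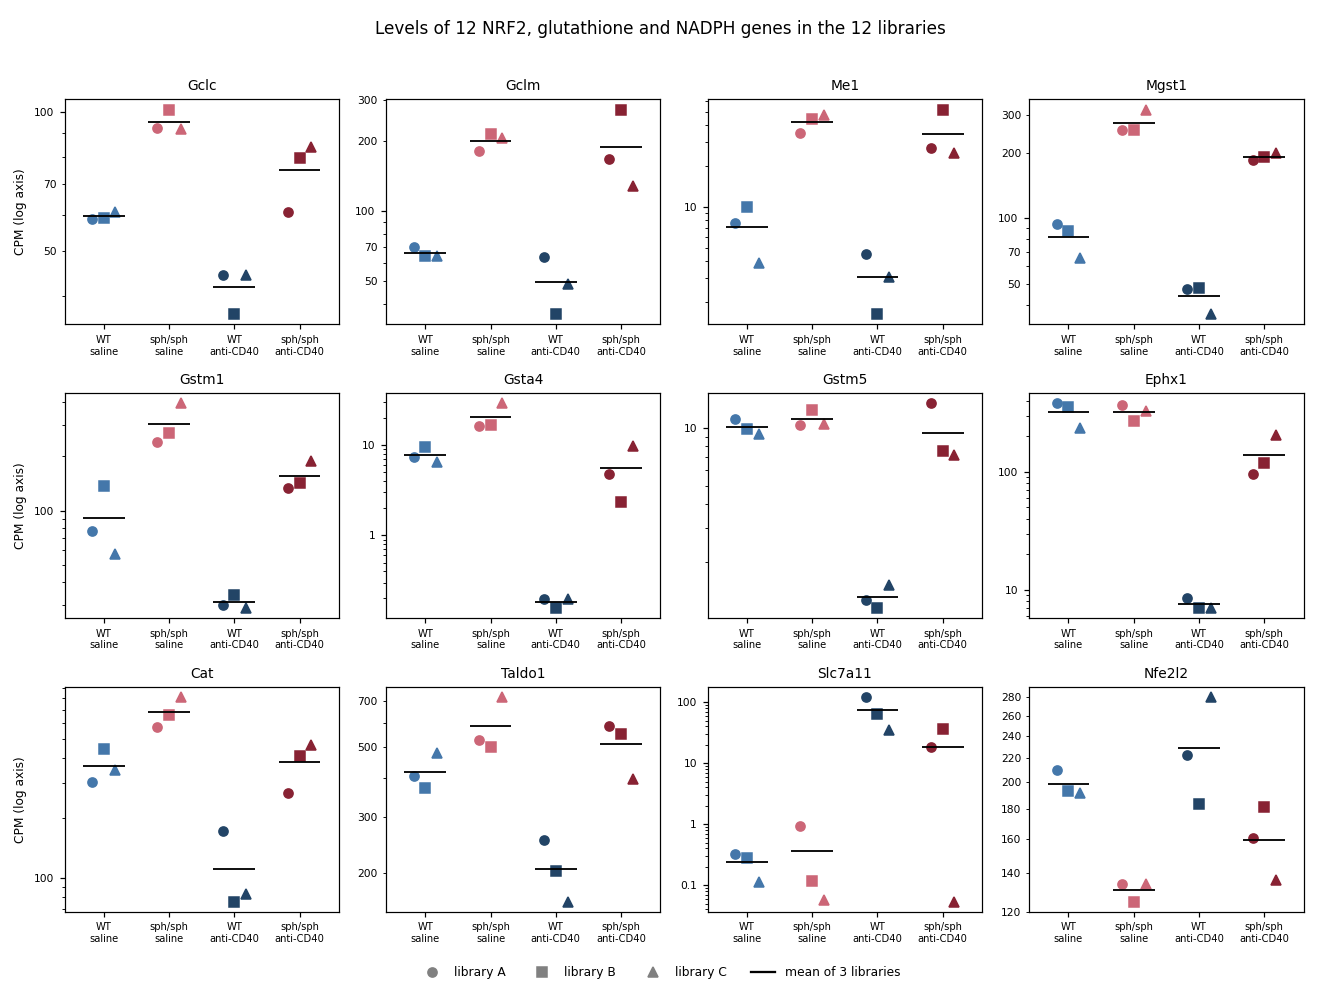
Levels of 12 genes in CPM on a log axis, by group, with circles, squares and triangles for libraries A, B and C and a black line for the mean of the 3 libraries. Gclc, Gclm, Me1, Mgst1 and Gstm1 stand higher in both sph/sph groups, while Ephx1, Gsta4 and Gstm5 drop mainly in WT anti-CD40.

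The saline difference was broader in direction than in calls. In 28 of the 37 genes every sph/sph saline library lay above every WT saline library, and in 1 gene, Nfe2l2, every one lay below; among all genes tested these shares were 16.7% and 14.3%. Nfe2l2, the gene of NRF2 itself, was at 209.8, 193 and 192 CPM in WT and 134, 125 and 134 CPM in sph/sph. Its libraries did not overlap, yet its log2 fold of -0.60 ± 0.17 did not pass (edgeR adjusted p = 0.121). Keap1 had a log2 fold of 0.40 ± 0.19 (edgeR adjusted p = 0.397) and Mafg, a small MAF partner of NRF2, one of 0.33 ± 0.21 (edgeR adjusted p = 0.569). Sqstm1, whose protein p62 binds KEAP1, was at 337, 295 and 283 CPM in WT and 701, 559 and 708 CPM in sph/sph, apart in every library but with an edgeR adjusted p of 0.101.

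The enzymes of the thioredoxin system and the pentose phosphate pathway had folds above 0 without a call. Txnrd1, thioredoxin reductase, ranged from 140.4 to 317 CPM in WT and from 479.8 to 574 CPM in sph/sph (log2 fold 1.18 ± 0.32, edgeR adjusted p = 0.11). Prdx1, an abundant peroxiredoxin, ranged from 594 to 707 CPM and from 1035 to 1679 CPM (log2 fold 1.05 ± 0.44, edgeR adjusted p = 0.334). Both ranges were separate between genotypes. The pentose phosphate enzymes had smaller folds, from 0.43 ± 0.24 for transketolase (Tkt) to 0.65 ± 0.34 for glucose-6-phosphate dehydrogenase (G6pdx) on the log2 scale. Nqo1, a quinone reductase often used as an NRF2 marker, was near 1 CPM in WT (1.16, 1.10 and 0.776) and at 2.66, 2.85 and 2.21 CPM in sph/sph, with an edgeR adjusted p of 0.0688.

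The count of called genes under saline depended on single libraries. It fell to 1 without WT saline A, without WT saline C, without sph/sph saline B or without sph/sph saline C, and to 2 without WT saline B. It was 9 without sph/sph anti-CD40 C, with Sqstm1, Gss, Gsta4 and Nqo1 added. The calls higher over all genes moved as well. From 222 they went to 102, 61 and 73 without WT saline A, B and C in turn. Without sph/sph saline A, B and C in turn they were 117, 112 and 135, and without sph/sph anti-CD40 C 383. Gclc lost its call without any 1 of the 6 saline libraries and without sph/sph anti-CD40 B or WT anti-CD40 C (edgeR adjusted p up to 0.182). Gclm and Me1 lost theirs without any 1 of the WT saline libraries or without sph/sph saline B or C, and Gstm1 without WT saline A or C or sph/sph saline B or C. In the same preparations 11 of 11 red cell precursor markers were called higher in sph/sph, and their summed level was 74.1 to 325 CPM in WT and 5385 to 9344 CPM in sph/sph. Neutrophil markers gave 0 calls of 8 by edgeR (7 at an unadjusted p under 0.05; 6 higher by DESeq2, 0 by limma-voom). Of 8 Kupffer cell markers 1, Marco, was higher, at 742, 279 and 941 CPM in WT and 10355, 10303 and 13321 CPM in sph/sph. The part of those cells or their RNA in the differences was not tested. Hepatocyte markers, whose cells express many of these enzymes, gave 0 calls of 13 for genotype under saline (edgeR; 0 at an unadjusted p under 0.05, and 0 by DESeq2 and by limma-voom), with summed levels of 5735, 4603 and 3581 CPM in WT and 4062, 10960.2 and 3464 CPM in sph/sph. In bulk RNA, fewer cells of a type and less RNA per cell cannot be told apart.

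**Figure D2:**
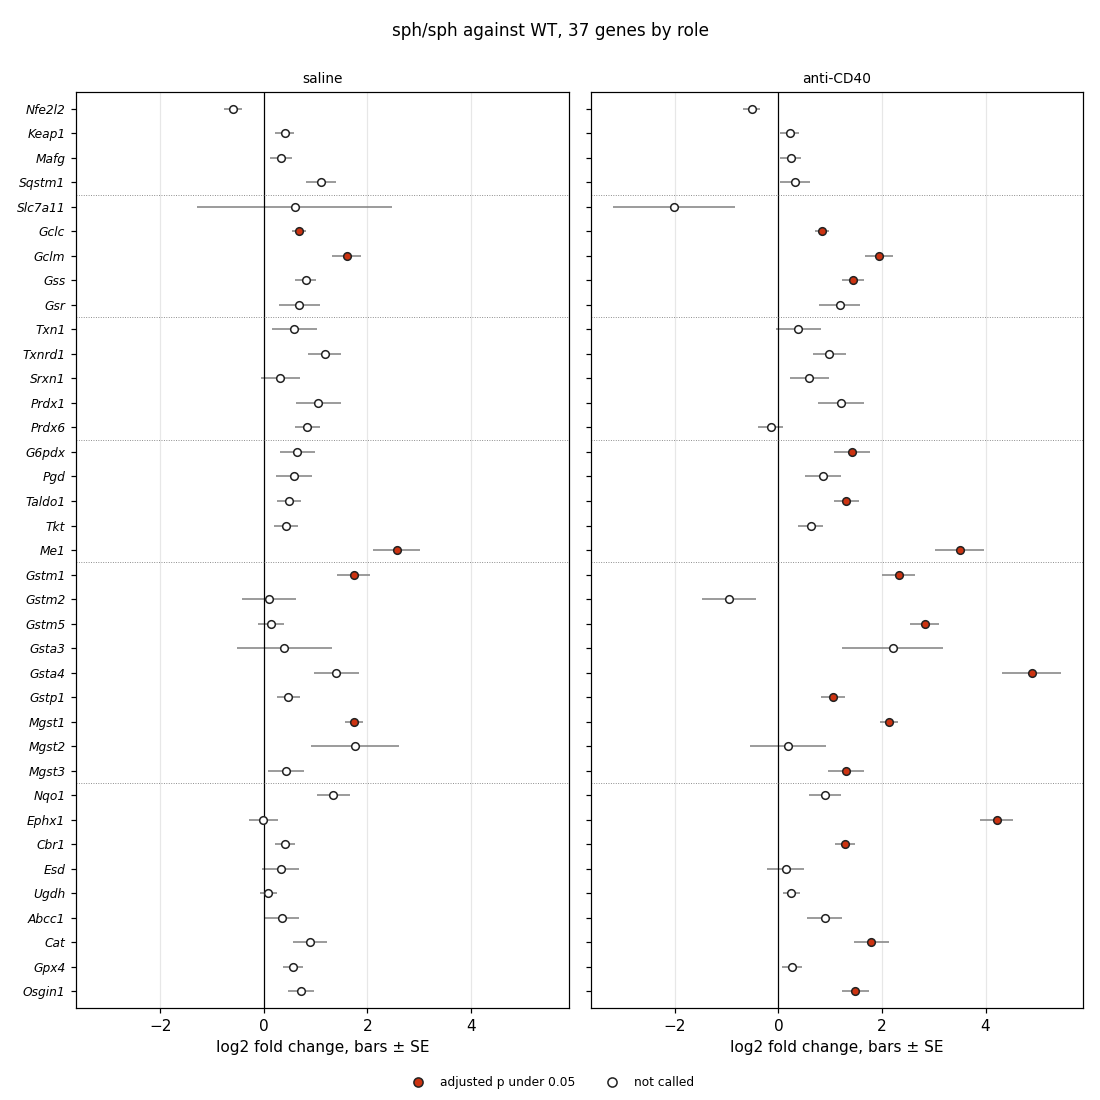
Log2 fold ± SE of sph/sph against WT for each of the 37 genes, under saline on the left and under anti-CD40 on the right, with dotted lines between functional groups and filled red points at an edgeR adjusted p under 0.05. Most points lie right of 0 in both panels, with 5 called under saline and 16 under anti-CD40.

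In WT mice, 20 of the 37 genes were called between anti-CD40 and saline. Of the 37 genes, 6 rose and 14 fell, that is 16.2% and 37.8%, beside 19.4% and 19.7% of all genes tested. The share that rose was thus below that of all genes, and the share that fell was above it. The rise included the cystine transporter Slc7a11, Prdx6, Sqstm1, Mgst2, Nqo1 and Esd. The fall included 6 of 9 glutathione transferases, epoxide hydrolase Ephx1, catalase, carbonyl reductase Cbr1, transaldolase, Me1, Gclc, Gss and Osgin1. The median log2 fold of the 37 was -0.10, against 0.05 over all genes.

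Slc7a11 encodes the light chain of the cystine/glutamate exchanger, which imports the cystine needed for glutathione. It was almost silent under saline, with 5, 5 and 2 counts (0.321, 0.275 and 0.111 CPM) in WT, and reached 1828, 1213 and 717 counts (122, 63.7 and 35.3 CPM) in WT anti-CD40. All 3 treated libraries were far above the saline libraries, with a log2 fold of 8.26 ± 1.68 (edgeR adjusted p = 0.00401). Prdx6, a peroxiredoxin that also acts on phospholipids, went from 40.4, 55.5 and 35.4 CPM to 106, 108 and 64.6 CPM without overlap. That was 2.12-fold, or 1.08 ± 0.25 on the log2 scale (edgeR adjusted p = 0.00705).

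Sqstm1 stood at 727, 389.9 and 502 CPM in WT anti-CD40, above each of the WT saline values given before (log2 fold 0.82 ± 0.30, edgeR adjusted p = 0.0474). Nqo1 was at 1.99, 2.31 and 1.97 CPM, again above the WT saline libraries (log2 fold 1.05 ± 0.32, edgeR adjusted p = 0.0273). Esd, esterase D, which hydrolyses S-formylglutathione, was at 65.3, 68.9 and 70.8 CPM under saline and 179, 135 and 108 CPM under anti-CD40 (log2 fold 1.04 ± 0.36, edgeR adjusted p = 0.0414). Mgst2, which can conjugate glutathione to a leukotriene, was scarce. It was at 0.129, 0.22 and 0.166 CPM and then 0.997, 1.73 and 1.43 CPM (log2 fold 2.96 ± 0.85, edgeR adjusted p = 0.0195). Each of these 4 genes lost its call when some single libraries were left out: Sqstm1 without any 1 of the 6 saline libraries, WT anti-CD40 A or C, or sph/sph anti-CD40 A; Esd without any saline library or WT anti-CD40 A or B. Nqo1 lost it without any WT saline library or WT anti-CD40 B or C, and Mgst2 without any WT saline library or WT anti-CD40 B. The number of genes that rose was 2 without WT saline A, B or C in turn and 3 without WT anti-CD40 B. Slc7a11 and Prdx6 were called in all 12 such fits. Over all genes, the 2690 that rose were 1724, 1647 and 1832 without WT saline A, B and C, and 1908 without WT anti-CD40 B.

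Ephx1 and Gsta4, which act on epoxides and reactive lipids, had the widest falls. Ephx1 (chr1:180976210-181020904), the microsomal epoxide hydrolase, was one of the more abundant genes under saline at 381, 357 and 235 CPM and was left at 8.51, 7.08 and 7.04 CPM. It fell in every WT library, 43.0-fold lower in the fit (log2 fold -5.43 ± 0.34, edgeR adjusted p = 5.61e-06). Gsta4 (chr9:78182774-78209349), a transferase that conjugates the lipid aldehyde hydroxynonenal, went from 7.39, 9.61 and 6.59 CPM to 0.199, 0.157 and 0.197 CPM. The treated libraries held 3, 3 and 4 counts, so the log2 fold of -5.36 ± 0.57 (edgeR adjusted p = 0.000115) rests on few reads on that side. Gstm5 (chr3:107895821-107898686) went from 11.1, 9.83 and 9.25 CPM to 1.26, 1.15 and 1.53 CPM, 7.59-fold lower with narrow spread in both groups (log2 fold -2.92 ± 0.28, edgeR adjusted p = 6.65e-05).

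The other 4 transferases that fell were Gstm1, Mgst1, Gstp1 and Gsta3. Gstm1 was left at 30.0, 34.0 and 28.8 CPM, below every WT saline library (log2 fold -1.55 ± 0.31, edgeR adjusted p = 0.00379). Mgst1 was left at 47.1, 47.9 and 36.2 CPM, also without overlap (log2 fold -0.91 ± 0.17, edgeR adjusted p = 0.00283). Gstp1, the pi class transferase, was at 30.6, 51.3 and 52.4 CPM under saline and 31.3, 24.9 and 19.2 CPM under anti-CD40. Treated library A of Gstp1 lay inside the saline range, and the log2 fold was -0.83 ± 0.23 (edgeR adjusted p = 0.0161; 0.0618 without WT saline C). Gsta3, of the alpha class, spread widely under saline (50.9, 123 and 40.5 CPM) and was at 3.52, 9.76 and 8.52 CPM under anti-CD40 (log2 fold -3.29 ± 1.02, edgeR adjusted p = 0.0274; -2.69 without WT saline B). Without WT saline B or any 1 of the WT anti-CD40 libraries the Gsta3 call was lost, with edgeR adjusted p up to 0.0823.

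Among the remaining genes that fell, catalase (Cat), which breaks down hydrogen peroxide, was at 305, 446 and 351 CPM under saline and 172, 76.2 and 83.4 CPM under anti-CD40 (log2 fold -1.73 ± 0.34, edgeR adjusted p = 0.0032). Cbr1, a carbonyl reductase, went from 37.3, 33.7 and 35.1 CPM to 12, 9.29 and 9.55 CPM, with little spread on either side (log2 fold -1.78 ± 0.20, edgeR adjusted p = 0.000146). Osgin1, an oxidative stress induced growth inhibitor, went from 39.9, 35.7 and 18.3 CPM to 12.2, 14.3 and 11.6 CPM (log2 fold -1.30 ± 0.26, edgeR adjusted p = 0.00355). None of the treated libraries of these 3 genes reached the saline range.

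Among the metabolic enzymes, Taldo1, Gss, Gclc and Me1 fell. Taldo1, transaldolase of the pentose phosphate pathway, was at 404, 371 and 480.1 CPM under saline and 253, 202 and 162 CPM under anti-CD40 (log2 fold -1.03 ± 0.23, edgeR adjusted p = 0.00676). Gss, glutathione synthetase, was at 21.1, 18.2 and 22.2 CPM and then 12.4, 11.5 and 10.3 CPM (log2 fold -0.85 ± 0.21, edgeR adjusted p = 0.0104). Gclc was left at 44.4, 36.5 and 44.4 CPM (log2 fold -0.51 ± 0.14, edgeR adjusted p = 0.0157; 0.0552 without WT anti-CD40 B). In all 3 genes the treated libraries lay below the saline libraries. Me1 was at 4.52, 1.63 and 3.05 CPM, with library A inside the saline range, and only just passed (log2 fold -1.23 ± 0.45, edgeR adjusted p = 0.0496); the Me1 call was lost without WT saline A or B, any 1 of the sph/sph saline libraries, WT anti-CD40 B or C, or sph/sph anti-CD40 A. Gclm, at 63.3, 36.0 and 48.7 CPM, did not pass (log2 fold -0.42 ± 0.27, edgeR adjusted p = 0.233).

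**Figure D3:**
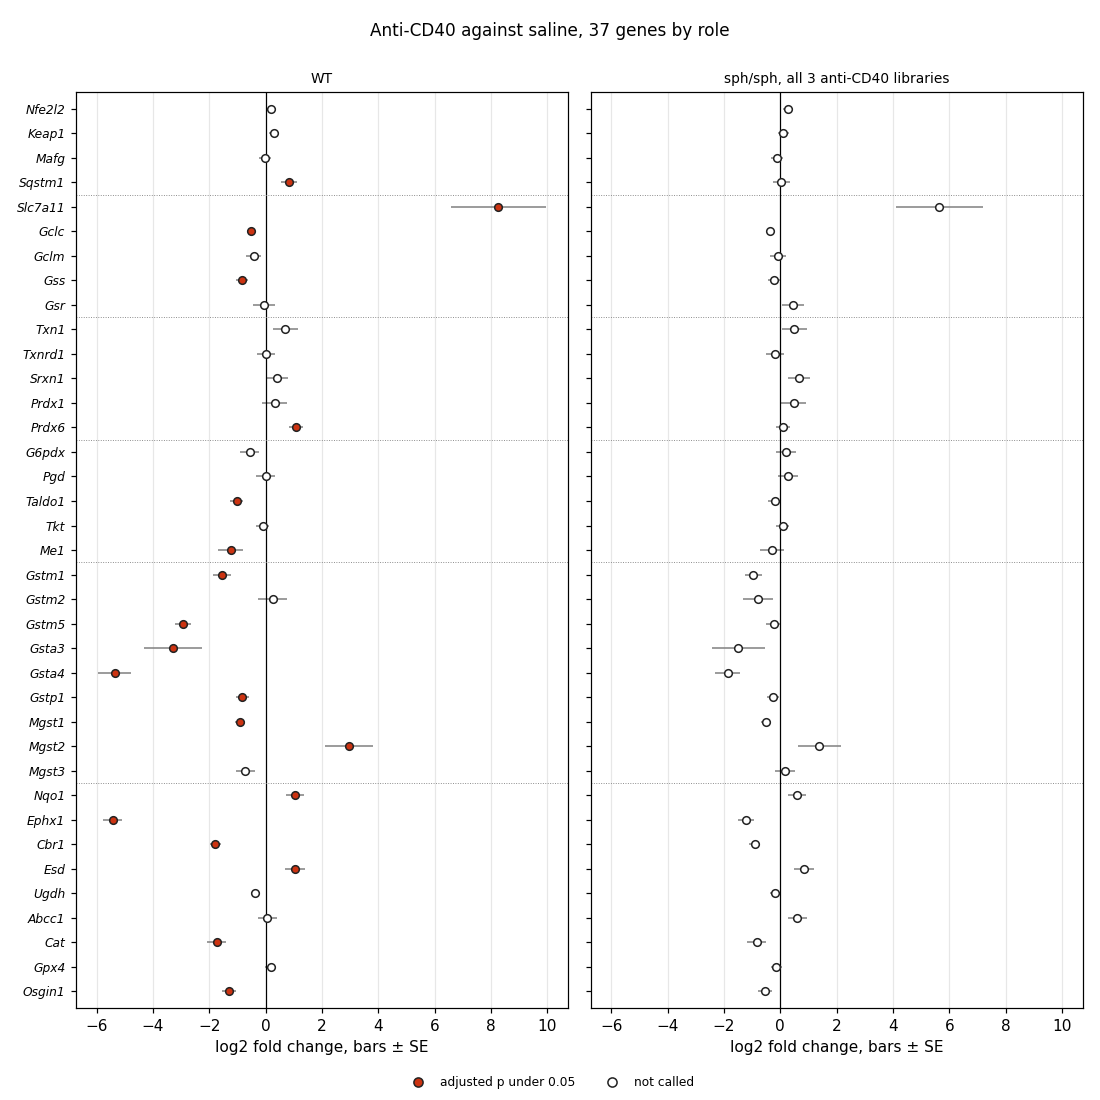
Log2 fold ± SE of anti-CD40 against saline for the 37 genes, in WT on the left and in sph/sph on the right, with filled red points at an edgeR adjusted p under 0.05. In WT 6 genes rose and 14 fell, and in sph/sph no point is filled.

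The falls in WT went along with a fall of Kupffer cell transcripts. Of 8 markers of Kupffer cells, the resident liver macrophages, 7 fell in WT under anti-CD40, and their summed level went from 31369, 26901 and 31242 CPM to 883, 435 and 1043 CPM. No marker of the list was at 0, but Clec4f, which was at 9764 to 10361 CPM under saline, was left at 2.93, 2.41 and 7.53 CPM. Monocyte markers went from 126 to 275 CPM to 791 to 1623 CPM in sum (4 of 6 rose), and T and NK cell markers from 2.03 to 2.51 CPM to 175 to 1385 CPM (9 of 9 rose). Of 13 hepatocyte markers, 2 fell (Cyp2e1, from 66.9 to 148 to 4.99 to 15.3 CPM, and Cps1, from 43.7 to 98.6 to 6.40 to 12.5 CPM) and 1, Hp, rose by edgeR; 7 had an unadjusted p under 0.05, and DESeq2 called 6 lower. The part of this change in cell types in the falls and rises of the 37 genes was not tested.

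**Figure D4:**
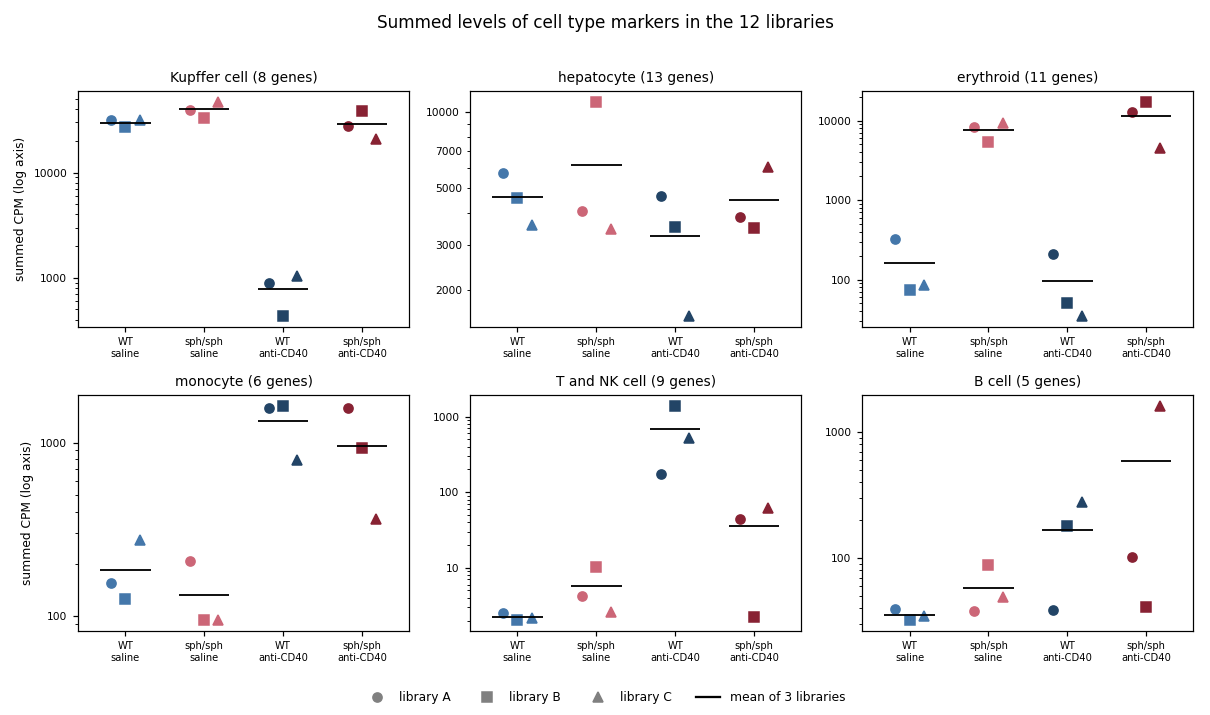
Summed CPM on a log axis of marker genes of Kupffer cells (8 genes), hepatocytes (13), red cell precursors (11), monocytes (6), T and NK cells (9) and B cells (5), by group, with circles, squares and triangles for libraries A, B and C. The Kupffer cell sum is lowest in WT anti-CD40 (in sph/sph it includes high Marco counts), the red cell sum is high in both sph/sph groups, and library C of sph/sph anti-CD40 has the highest B cell sum.

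In sph/sph mice the same treatment called none of the 37 genes. The counts were 0 higher and 0 lower, beside 0.578% and 0.202% of all genes tested; at an unadjusted p under 0.05 edgeR gave 2 higher and 7 lower, DESeq2 called 1 higher and 5 lower, and limma-voom called 0. The median log2 fold was -0.12, against 0.04 over all genes. Leaving out sph/sph anti-CD40 C changed this: 3 genes rose and 6 fell, beside 9.83% and 7.04% of the genes tested in that fit. Without WT anti-CD40 A, 1 gene (Cbr1) fell.

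Slc7a11 was one of the genes in which library C differed. It had 14, 2 and 1 counts in sph/sph saline and 264, 492 and 1 counts in sph/sph anti-CD40, that is 18.2, 36.4 and 0.054 CPM. Libraries A and B were high, below or within the range of WT anti-CD40, and library C was at the saline level. The log2 fold was 5.65 ± 1.53 (edgeR adjusted p = 0.0973) with all 3 libraries and 6.24 ± 0.82 (edgeR adjusted p = 0.00207) without C. Srxn1, sulfiredoxin, which repairs overoxidised peroxiredoxins, was at 50.1, 45.5 and 48.4 CPM under saline and 70.4, 125 and 33.8 CPM under anti-CD40, and rose without C (log2 fold 1.02 ± 0.27, edgeR adjusted p = 0.0309). Esd was at 81.4, 79.1 and 96.3 CPM and then 185, 213 and 65.5 CPM, with the same pattern (without C, log2 fold 1.21 ± 0.19, edgeR adjusted p = 0.00441).

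Ephx1, Gsta4 and Cbr1, which fell in WT, were not called in sph/sph with all 3 treated libraries. Ephx1 was at 367, 271 and 329 CPM in sph/sph saline and 96.3, 120.0 and 204 CPM in sph/sph anti-CD40, lower in every treated library but with an edgeR adjusted p of 0.0742 (log2 fold -1.20 ± 0.28). Gsta4 was at 16.2, 16.9 and 29.2 CPM and then 4.84, 2.37 and 9.77 CPM (log2 fold -1.87 ± 0.45, edgeR adjusted p = 0.0772). Cbr1 was at 42.4, 41.1 and 57.5 CPM and then 29.6, 18.9 and 26.4 CPM (log2 fold -0.91 ± 0.19, edgeR adjusted p = 0.0583). These 3 genes fell when library C was left out, with edgeR adjusted p of 0.00397 for Ephx1, 0.00373 for Gsta4 and 0.0185 for Cbr1.

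Gsta3 spread widely between sph/sph libraries. It was at 41.3, 113 and 127 CPM in sph/sph saline and 7.88, 5.70 and 86.9 CPM in sph/sph anti-CD40, with library C far above A and B. Without C its log2 fold was -3.80 ± 0.71 (edgeR adjusted p = 0.00875), and with C it was -1.48 ± 0.94 (edgeR adjusted p = 0.384). The hepatocyte sum was also highest in C within that group, at 3849.8, 3502 and 6098 CPM, and its part in the value of Gsta3 was not tested. Gstm1 was at 133, 141 and 189 CPM in sph/sph anti-CD40. Gstm2 was at 13.8, 16.4 and 8.49 CPM and then 5.46, 3.18 and 13.5 CPM. By edgeR, both fell without C only (edgeR adjusted p = 0.0486 and 0.0433).

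Gstm5, which fell in WT, was at 10.3, 12.3 and 10.5 CPM in sph/sph saline and 13.4, 7.54 and 7.23 CPM in sph/sph anti-CD40 (log2 fold -0.23 ± 0.26). Mgst1 was at 186, 191 and 199 CPM, Gclc at 60.9, 79.7 and 84.2 CPM and Gclm at 167, 273 and 128 CPM in sph/sph anti-CD40, none of them called against their saline levels. Me1 was likewise not called, at 27.0, 52.2 and 24.8 CPM. A p that misses the threshold does not show that these levels were equal.

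Under anti-CD40 the genotypes differed in 16 of the 37 genes, each higher in sph/sph. This was 43.2% of the genes higher and 0 lower, beside 11.5% and 6.19% of all genes tested. For the count of 0, edgeR gave 1 lower gene at an unadjusted p under 0.05, DESeq2 called 1 lower (Nfe2l2) and limma-voom 0. With all libraries DESeq2 called 20 of the 37 genes higher, beside 1913 of 14814 genes, and limma-voom 15, beside 1480 of 13844. The median log2 fold by edgeR was 0.98, against 0.08 over all genes, and 33 folds were above 0. Without sph/sph anti-CD40 C, 24 genes were higher and 1, Gstm2, was lower, beside 13.5% and 10.8%; without WT anti-CD40 B, 1 gene (Nfe2l2) was lower. In 17 genes every sph/sph library lay above every WT library, and in 1 (Nfe2l2) every one lay below, beside 16.7% and 11.7% of all genes.

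The 5 genes called under saline were called again, and the test of the difference between both responses, given further on, called none of them. Their levels have been given for all 4 groups, and in each of the 5 all 3 sph/sph libraries were above the WT libraries. The log2 fold was 0.84 ± 0.14 for Gclc (edgeR adjusted p = 0.00285) and 1.94 ± 0.28 for Gclm (edgeR adjusted p = 0.00135). Me1 was 11.3-fold higher (log2 fold 3.50 ± 0.47, edgeR adjusted p = 0.00102). Gstm1 was 5.00-fold higher (edgeR adjusted p = 0.00113) and Mgst1 4.39-fold (log2 fold 2.13 ± 0.18, edgeR adjusted p = 7.24e-05). The saline and anti-CD40 contrasts between genotypes use different libraries, but the same fit.

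A further 11 genes were called under anti-CD40 and not under saline. Ephx1, at 96.3 to 204 CPM in sph/sph against 7.04 to 8.51 CPM in WT, was 18.6-fold higher (log2 fold 4.22 ± 0.32, edgeR adjusted p = 4.22e-05). Gsta4 was 29.7-fold higher (log2 fold 4.89 ± 0.57, edgeR adjusted p = 0.000428; 18.9-fold without library C), and Gstm5 7.10-fold (edgeR adjusted p = 0.000174). Gstp1 was at 57.1, 51.6 and 47.5 CPM in sph/sph, above each WT library (2.07-fold, edgeR adjusted p = 0.0116). Under saline, Gstp1 was at 55.5, 61.8 and 69.2 CPM in sph/sph. Mgst3, another microsomal transferase, ranged from 6.43 to 10.4 CPM in WT saline and from 9.24 to 15.1 CPM in sph/sph saline. Under anti-CD40 it was at 5.05, 5.62 and 4.83 CPM in WT and 18.5, 6.95 and 12.9 CPM in sph/sph. Its groups were apart by little, and its call at a log2 fold of 1.31 ± 0.35 (edgeR adjusted p = 0.0281) was lost without any 1 of the WT anti-CD40 libraries or without sph/sph anti-CD40 A.

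The pentose phosphate enzymes G6pdx and Taldo1 were among the 11. G6pdx, the enzyme that commits glucose to the pathway, ranged from 190.4 to 227 CPM in WT saline and from 315 to 351 CPM in sph/sph saline. Under anti-CD40 it was at 204, 132 and 97.1 CPM in WT and 423, 531 and 199 CPM in sph/sph. The lowest sph/sph library, C, lay below WT library A, and the log2 fold was 1.42 ± 0.35 (edgeR adjusted p = 0.0196; 0.0023 without C). The G6pdx call was lost without WT anti-CD40 B or C and without sph/sph anti-CD40 A or B, with edgeR adjusted p up to 0.0756. Taldo1 was at 529, 500.2 and 723 CPM in sph/sph saline and 584, 552 and 397 CPM in sph/sph anti-CD40, the latter above each WT library (log2 fold 1.31 ± 0.24, edgeR adjusted p = 0.0044). The other enzymes of the pathway, Pgd and Tkt, were at 526, 718 and 243 and 505, 480.4 and 280.5 CPM in sph/sph against 373, 251 and 199 and 321, 294 and 208 CPM in WT. By edgeR they were called without C only (edgeR adjusted p = 0.0102 for Pgd and 0.0114 for Tkt).

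Of the remaining genes called here, Gss was at 33.0, 36.6 and 23.2 CPM in sph/sph anti-CD40, 2.71-fold above WT (edgeR adjusted p = 0.00161). Cat was at 268, 412 and 467 CPM, 3.46-fold above WT (edgeR adjusted p = 0.00585). Osgin1 was at 33.3, 41.6 and 31.2 CPM, 2.79-fold above WT (edgeR adjusted p = 0.00415). Together with Cbr1 (2.43-fold, edgeR adjusted p = 0.00192), these genes had no overlap between genotypes. In sph/sph saline, Gss was at 28.7, 33.4 and 45.4 CPM, Cat at 572, 662 and 814 CPM and Osgin1 at 44.0, 55.6 and 55.0 CPM.

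Of the 16 genes higher under anti-CD40, 13 had fallen in WT, and 9 of those 13 were not called under saline. Both contrasts share the WT anti-CD40 libraries, so a low value there enters each of them. The share of all tested genes with both calls was not counted, so the 13 cannot be read as particular to this list. In the edgeR fit of all 12 libraries, none of the 6 genes that rose in WT was called between genotypes under either treatment. In sph/sph anti-CD40, Prdx6 was at 95.4, 81.6 and 73.3 CPM and Sqstm1 at 677, 917 and 428 CPM. Nqo1 was at 4.84, 3.92 and 2.97 CPM in the same libraries and Mgst2 at 0.76, 0.37 and 3.56 CPM. Prdx6 was already at 60.3, 93.1 and 81.7 CPM in sph/sph saline and Mgst2 at 0.931, 0.594 and 0.291 CPM. Slc7a11, at 18.2, 36.4 and 0.054 CPM in sph/sph anti-CD40, had a log2 fold of -2.02 ± 1.18 and did not pass (edgeR adjusted p = 0.279). Without sph/sph anti-CD40 C, Nqo1 was called higher under anti-CD40 (edgeR adjusted p = 0.034). That fit also called Sqstm1 and Nqo1 higher under saline (edgeR adjusted p = 0.0389 and 0.0397). Gsta3 had a log2 fold of 2.20 ± 0.98 between genotypes (edgeR adjusted p = 0.154), and of -0.10 ± 0.63 without library C.

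None of the 4 regulators was called between genotypes by edgeR with all libraries (2 at an unadjusted p under 0.05 under saline and 1 under anti-CD40; 0 by limma-voom). DESeq2 called Nfe2l2 lower under both treatments and Sqstm1 higher under saline, and with only the libraries compared edgeR called the same 2 genes under saline. Nfe2l2 was at 223, 183 and 280.3 CPM in WT anti-CD40 and 161, 182 and 136 CPM in sph/sph anti-CD40, just separate, with a log2 fold of -0.52 ± 0.17 (edgeR adjusted p = 0.0589). Keap1 was at 84.6, 70.2 and 74.4 CPM and 106, 96.3 and 63.6 CPM, and Mafg at 130.4, 76.9 and 98.3 CPM and 110.5, 149 and 100.0 CPM; both overlapped. These are transcript levels, and NRF2 is controlled largely at the level of its protein, which was not measured.

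Genes of the thioredoxin system were not called by edgeR with all libraries. Prdx1 was at 1257, 523 and 665 CPM in WT and 2108, 2716 and 817 CPM in sph/sph anti-CD40 (edgeR adjusted p = 0.0867; 0.0127 without C). Txnrd1 was at 283, 203 and 212 CPM in WT and 391, 655 and 333 CPM in sph/sph (edgeR adjusted p = 0.0592; 0.0312 without C). Gsr, glutathione reductase, was at 264, 186 and 129 CPM and 492, 641 and 179 CPM (edgeR adjusted p = 0.0696; 0.00398 without C). In all 3 genes library C was the lowest of its group. Prdx1 and Gsr were also called without WT anti-CD40 A, and Txnrd1 without WT saline C. By edgeR, Srxn1 and Abcc1, an exporter of glutathione conjugates, were also called without C only (edgeR adjusted p = 0.0292 and 0.0199).

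Txn1, Ugdh and Gpx4 had no edgeR call in any of the comparisons, with or without library C. Txn1, thioredoxin, ranged from 374 to 506 CPM in WT saline, 497 to 780.1 in sph/sph saline, 519 to 1083 in WT anti-CD40 and 375 to 1294 in sph/sph anti-CD40. Ugdh, which makes the sugar donor for glucuronidation, ranged from 45.7 to 55.2 CPM in WT saline, 41.1 to 63.5 in sph/sph saline, 36.5 to 41.1 in WT anti-CD40 and 40.8 to 50.0 in sph/sph anti-CD40. Gpx4, the peroxidase of lipid hydroperoxides, ranged from 97.0 to 110.2, 126 to 194, 104 to 123 and 118 to 169.9 CPM in the same order.

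Markers of several cell types differed between genotypes under anti-CD40 as well. All 8 Kupffer cell markers were called higher in sph/sph, with sums of 27916, 38156 and 20979.5 CPM against the low WT values given above. Marco, higher in sph/sph already under saline, was 16800.4, 21801 and 5734 CPM of these sums. The other 7 markers, a sum formed after the values were seen, were at 29315, 22541 and 33645 CPM in sph/sph saline and 11116, 16356 and 15246 CPM in sph/sph anti-CD40, beside 30628, 26622 and 30301 CPM in WT saline and 407, 160.3 and 332 CPM in WT anti-CD40. Clec4f was at 828, 1601 and 3869 CPM in sph/sph anti-CD40, below its 5989 to 9634 CPM in sph/sph saline (edgeR adjusted p = 0.115). Of the 6 general macrophage markers 3 were called higher, and of the 9 T and NK cell markers 5 were called lower (9 at an unadjusted p under 0.05), with sums of 175 to 1385 CPM in WT and 2.22 to 62.1 CPM in sph/sph. Red cell precursor markers summed to 34.9 to 207 CPM in WT and 4570.4 to 17199 CPM in sph/sph, with 11 of 11 called higher. Hepatocyte markers gave 0 calls of 13 (edgeR; 3 at an unadjusted p under 0.05, 2 by DESeq2 and 0 by limma-voom), with sums of 4673, 3532 and 1576 CPM in WT beside the sph/sph sums given with Gsta3. B cell markers summed to 101, 40.9 and 1613 CPM in sph/sph, highest in library C. The part of these cells in the genotype differences of the 37 genes was not tested.

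The test of the difference between both responses (sph/sph minus WT) called 3 of the 37 genes, Ephx1, Gsta4 and Gstm5, each with the smaller fall in sph/sph. This was 8.11% higher and 0 lower, beside 3.18% and 1.12% of all genes tested; for the count of 0, edgeR gave 1 at an unadjusted p under 0.05, and DESeq2 and limma-voom called 0. The log2 difference was 4.22 ± 0.41 for Ephx1 (edgeR adjusted p = 0.000426), where WT fell by 5.43 on the log2 scale. It was 2.69 ± 0.38 for Gstm5 (edgeR adjusted p = 0.00363) and 3.49 ± 0.70 for Gsta4 (edgeR adjusted p = 0.0215; without sph/sph anti-CD40 C, 2.85 ± 0.55 with an edgeR adjusted p of 0.018). The Gsta4 call was lost without WT saline A, sph/sph saline A or B, or WT anti-CD40 B or C (edgeR adjusted p up to 0.0658). For the other genes that fell in WT, such as Mgst1 (0.39 ± 0.24), Gstm1 (0.59 ± 0.43) and Cat (0.90 ± 0.47), a difference in response was not called. Of the 8 Kupffer cell markers, 7 were called higher in the same test.

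Levels can be compared between genes only per transcript length. On the scale of CPM per kb of exon (mean ± SD, n = 3), Txn1 was highest in WT saline at 422 ± 62.9, before Prdx1 at 215 ± 18.7, Taldo1 at 193 ± 25.6, Ephx1 at 166 ± 40.0 and Cat at 141 ± 27.5. Ephx1 and its neighbours Taldo1 and Cat differed by no more than their spread. Ephx1 then stood at rank 30 of 37 in WT anti-CD40, at 3.87 ± 0.429, and at rank 12 in sph/sph anti-CD40, at 71.9 ± 29.1. Txn1 and Prdx1 held ranks 1 and 2 in each of the 4 groups.

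Other genes of the pathway were counted in the same way. Of 91 further genes of NRF2 regulation, glutathione, thioredoxin and NADPH metabolism, 87 were tested. Under saline 1 was called higher in sph/sph, the heme oxygenase gene Hmox1 (log2 fold 2.91 ± 0.40, edgeR adjusted p = 0.00608; 1.15%, beside 1.6% of all genes tested), and 0 lower (2 at an unadjusted p under 0.05; 0 by DESeq2 and by limma-voom). On the higher side under saline, edgeR gave 17 of the 87 at an unadjusted p under 0.05, beside 1114 of 13844 genes. Of the 87 folds 64 were above 0, beside 51.4% of all genes. DESeq2 called 9 higher, beside 567 of 14456 genes, and limma-voom 1. Without sph/sph anti-CD40 C edgeR called 5, beside 383 of 14066 genes. In WT under anti-CD40 13 rose (14.9%) and 34 fell (39.1%), beside 19.4% and 19.7% of all genes tested. In sph/sph 0 were called (27 at an unadjusted p under 0.05; 5 higher and 10 lower by DESeq2, 0 by limma-voom), and without library C 9 rose and 13 fell, beside 9.83% and 7.04% of the genes tested in that fit. Under anti-CD40, 25 were higher in sph/sph (28.7%) and 1 was lower (1.15%), beside 11.5% and 6.19% of all genes tested.

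The widest log2 folds of these genes were those of Abcc3, Gpx3 and Ggt5, which had fallen in WT. Abcc3, an exporter of conjugated organic anions, was at 1060.4, 973 and 1037 CPM in WT saline and 1167, 1007 and 1200.2 CPM in sph/sph saline, then at 13.8, 5.83 and 4.58 CPM in WT anti-CD40 and 304, 497 and 652 CPM in sph/sph anti-CD40. The genotypes overlapped under saline and were far apart under anti-CD40 (log2 fold 5.91 ± 0.47, edgeR adjusted p = 5.59e-05). Gpx3, the secreted glutathione peroxidase, was at 6.32, 2.68 and 5.56 CPM in WT anti-CD40 and 103, 128 and 266 CPM in sph/sph (log2 fold 5.09 ± 0.45, edgeR adjusted p = 0.000103). Ggt5, which cleaves glutathione conjugates outside the cell, was at 1.66, 2.73 and 2.56 CPM and 37.7, 61.0 and 29.6 CPM (log2 fold 4.19 ± 0.29, edgeR adjusted p = 3.3e-05).

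Hmox1 was 11-fold higher under anti-CD40 (edgeR adjusted p = 0.000469). Cbr3, a carbonyl reductase next to Cbr1 in function, was at 1.80, 1.21 and 1.62 CPM in WT and 8.70, 12 and 8.96 CPM in sph/sph (log2 fold 2.68 ± 0.33, edgeR adjusted p = 0.000578). Maff, a small MAF gene and the 1 lower gene, was at 2.18, 1.98 and 1.11 CPM in WT saline, at 195, 64.7 and 87.3 CPM in WT anti-CD40 and at 33.4, 36.4 and 5.72 CPM in sph/sph anti-CD40, lowest in library C (log2 fold -2.20 ± 0.62, edgeR adjusted p = 0.0341). The difference between both responses was called higher for 6 of the 87 genes, Abcc3, Gpx3, Ggt5, Cbr3, Oplah and Idh2, and lower for 0. That is 6.9% higher, beside 3.18% higher and 1.12% lower among all genes tested. DESeq2 called 14 higher and 2 lower, and limma-voom 5 higher and 0 lower.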

How the data were processed

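The deposited file is a table of raw read counts per Ensembl gene, 1 column per library, and its values show no normalization by the authors. The submitters' processing notes name STAR 2.7.0e, SAMtools 1.9, featureCounts and build GRCm38.p5; neither the annotation nor the use of strand in counting is given in the sources used here. The kit, TruSeq RNA, was a stranded one per the labels' protocols. Of 25700 identifiers, 25587 matched a gene symbol. Libraries were grouped by the genotype and treatment in the column names; letters A to C follow the column order and are names only. The A columns of WT and sph/sph share an identifier within each treatment; what it marks is not given in the sources used here.

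Genes were filtered with filterByExpr by group, scaled by TMM and fitted in edgeR 4.0.16 (R 4.3.3) by a robust quasi-likelihood model with a mean for each of the 4 groups, so that all 12 libraries share 1 estimate of the spread. Differences were tested by quasi-likelihood F tests with Benjamini-Hochberg adjustment over 13844 genes and a threshold of 0.05. The SE was approximated as the absolute log2 fold over the root of F. The p-values measure the spread between 3 libraries per group. Alternatives were DESeq2 1.42.0 size factors or its Wald test, limma-voom (limma 3.58.1), no filter, only the libraries compared, a term for the presence of Y-linked counts (which is also a term for the A libraries), a block for each of the 2 pairs of libraries that share an identifier (added after the data were seen), a threshold of 0.1 and each library left out in turn. On counts simulated for the saline genotype comparison over 13844 genes, the test called 8 of 50 genes changed 2-fold, 32 of 50 changed 4-fold and 42 of 50 changed 8-fold.

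The 37 genes, the pathway list and the marker lists were chosen with earlier results of these data known. Genes of the 37 called in at least 1 comparison are described with every library's value, the others by range or in part; pathway genes called between genotypes are named up to 6 per comparison by size of the log2 fold. Promoters were printed for up to 4 called genes with the motif, in the order of the list. Windows of Gclc, Gsr, Prdx6, Gsta4 and Abcc1 were not used here. The comparison of library ranges was added after the data were seen. Counts are uncertain for genes whose exons overlap another gene, such as Sqstm1 (17.3% of its exon bases, with Mrnip on the opposite strand), G6pdx (13.6%, with Ikbkg), Gstm5 (13.9%), Keap1 and Gss, and for near copies such as the Gstm and Gsta families or Txn1, Prdx1 and Gpx4, which have pseudogenes. Gene coordinates are from GENCODE vM21 on GRCm38, counted from 1.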

Additional observations from a re-analysis of the deposited data

Results flagged for a closer look

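The response to anti-CD40 differed between genotypes in 3 of the 37 genes, by edgeR's quasi-likelihood test of the difference itself (sph/sph minus WT, on the log2 scale). For Gstm5 the difference was 2.69 ± 0.38 (edgeR adjusted p = 0.00363), for Gsta4 3.49 ± 0.70 (edgeR adjusted p = 0.0215; 2.85 ± 0.55 without sph/sph anti-CD40 C) and for Ephx1 4.22 ± 0.41 (edgeR adjusted p = 0.000426). The Gsta4 call was lost in 5 of the 12 fits that left out 1 library. In each of the 3 genes all 3 WT anti-CD40 libraries lay below every sph/sph anti-CD40 library, as in 16.7% of all genes tested. The same libraries enter the test of the difference, so their separation is no further support for it.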

How the results depend on the processing

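Within each treatment 1 library of each genotype shares an identifier with 1 of the other genotype. Their deviations from the group means correlated at -0.02 under saline and 0.42 under anti-CD40 over 13844 genes, and the identifier's meaning is unknown, so the pairing is not established. With each of these 2 pairs as a replicate block, the genes that rose in WT were 3 in place of 6 (Sqstm1, Nqo1 and Esd were not called). In that fit Gclc was not called under saline (4 higher), and 13 genes in place of 14 fell in WT. The other counts for the 37 genes stayed within 1.5 times. The counts of called genes that moved by more than 1.5 times were these, and the cause was not tested. Under saline the 5 genes higher in sph/sph were 10 by the DESeq2 Wald test and 12 when only the libraries compared were fitted, and the 0 lower were 1 (Nfe2l2) in both. In WT the 6 genes that rose under anti-CD40 were 3 with no filter on low counts. In sph/sph the 0 genes that rose were 1 by DESeq2 and 1 at an adjusted p under 0.1, and the 0 that fell were 5 by DESeq2 and 3 at that threshold. Under anti-CD40 the 0 genes lower in sph/sph were 1 by DESeq2 and 1 at that threshold. Leaving out 1 library at a time gave 1 to 9 genes higher under saline, 2 to 6 that rose and 11 to 14 that fell in WT, 0 to 3 that rose and 0 to 6 that fell in sph/sph, 14 to 24 higher and 0 to 1 lower under anti-CD40, and 2 to 3 in the difference of responses. Calls held in all 12 such fits for 1 of 5 genes under saline, 12 of 20 in WT, 14 of 16 under anti-CD40 and 2 of 3 in the difference of responses. Over the 44 called results of single genes and 877 alternative values, 777 kept direction and call, 100 kept direction only and 0 reversed. Over all genes the saline calls (222 higher, 60 lower) became 567 and 256 by DESeq2 and 533 and 358 with only the libraries compared. Under anti-CD40 the calls over all genes (1598 higher, 857 lower) became 494 and 241 with only the libraries compared. In sph/sph the calls over all genes (80 higher, 28 lower) became 705 and 603 by DESeq2 1 and 0 with the replicate block, and 0 with only the libraries compared. Low levels limit Slc7a11, Mgst2, Nqo1 and, in WT anti-CD40, Gsta4.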
